A study of Saccharomyces cerevisiae with 8 samples.

Results

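The left part of chromosome III of budding yeast was followed as cells entered S phase. It was taken as all windows of that chromosome that start within its first 198 kb (sacCer2), which left out the part to the right, where the mating-type locus lies. These were 396 of the 24133 windows in the genome, each 1000 bp long and placed every 500 bp. The stretch holds HML, the silent copy of mating-type information near the left end, and the origins ARS305 at 39 kb, ARS306 at 74 kb, ARS307 a further 35 kb to the right, ARS309 23 kb past ARS307, and ARS310 35 kb past ARS309. The choice of windows and origins used position and not measured values.

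Replication begins at origins, the sites where the MCM helicase, of which Mcm6 is a subunit, is loaded before S phase. The kinase Cdc7 then acts on the loaded helicase, and replication forks leave the origin in both directions. In a population of cells, DNA near an origin that fires early and often is therefore copied ahead of its surroundings and forms a peak in a copy number profile, while late or passively copied DNA forms a valley. HML is kept silent by a chromatin structure, and the DNA around it is known for late replication.

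All cells were W303 diploids, as their labelled genotype reads, with cdc7-4/cdc7-4, Mcm6-aid::HIS3/+ and ADH1-TIR::URA/+. The cdc7-4 allele makes Cdc7 temperature-sensitive, and Mcm6-aid is a form of Mcm6 that auxin (IAA) removes through the TIR protein, which was made here from the ADH1 promoter. Cells carried in addition either Mcm6-SuOn::KAN/+ or Mcm6-ctrl::KAN/+, and these 2 genotypes were compared, with 1 strain for each. Both were held in G2/M with nocodazole, given IAA, warmed so that cdc7-4 stopped them before S phase, and released by cooling. DNA was taken at 0, 15, 30 and 40 min after release. The comparison asks how copying of the genome from its origins differs with the Mcm6-SuOn form.

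There was 1 library for each genotype and time, 8 in all, so no difference has a replicate check and none was tested against replicates. Intervals are 95% intervals that cover counting error alone. They treat each read as its own molecule, which cannot be checked where molecular identifiers are lacking. The libraries held 13789197 to 23439686 reads in the windows of the genome, of which 237385 to 398994 lay in the left part of chromosome III. The unit is the relative copy number, the deposited count of a later library divided by the 0 min count of the same genotype, scaled so that each chromosome averages 1, and smoothed. A value above 1 is thus above the mean of chromosome III and does not count DNA copies. Of the 396 windows, 376 had a value in all 6 later libraries. The other 20 lay in 3 stretches of low count, at chrIII:12001-14000 within HML, chrIII:85001-91000 and chrIII:148501-152000.

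Each ratio has the 0 min library of its own genotype below the line, and the 0 min libraries of the genotypes differed within the left part of chromosome III. Read shares (reads in a stretch over all reads of the library) were compared directly, with no division by 0 min. At 0 min Mcm6-SuOn had 1.04 times the share of Mcm6-ctrl over the whole stretch (1.03 to 1.04). Of 376 windows, 84 (22.3%) were at least 1.1-fold higher in Mcm6-SuOn, against 16.5% of windows in the genome, and 4 (1.06%) were at least 1.1-fold lower, against 15.5%. The 0 min excess lay around ARS306: at 55 to 85 kb, 58 of 59 windows passed 1.1-fold, and the ratio of shares there was 1.21 (1.19 to 1.23). In that zone the Mcm6-SuOn 0 min share was 1.03 times the mean of all 8 libraries, and the Mcm6-ctrl 0 min share was 0.854 times that mean. The Mcm6-ctrl 0 min library was thus the further of the 2 from that mean, which is made mostly of libraries taken after release. With 1 library each, it cannot be told which of the 2 was unusual. Scaling adds a second limit, because the mean of chromosome III also takes in its right part. There the median window ratio of 0 min shares, Mcm6-SuOn over Mcm6-ctrl, was 1.72, against 1.03 in the left part. On the deposited scale at 15 min the right part averaged 1.12 in Mcm6-ctrl and 1.03 in Mcm6-SuOn. The left part averaged 0.926 in Mcm6-ctrl and 0.984 in Mcm6-SuOn. For these reasons each origin is also described by its height over the lowest values beside it in the same library (local contrast) and by direct read shares.

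**Figure D1:**
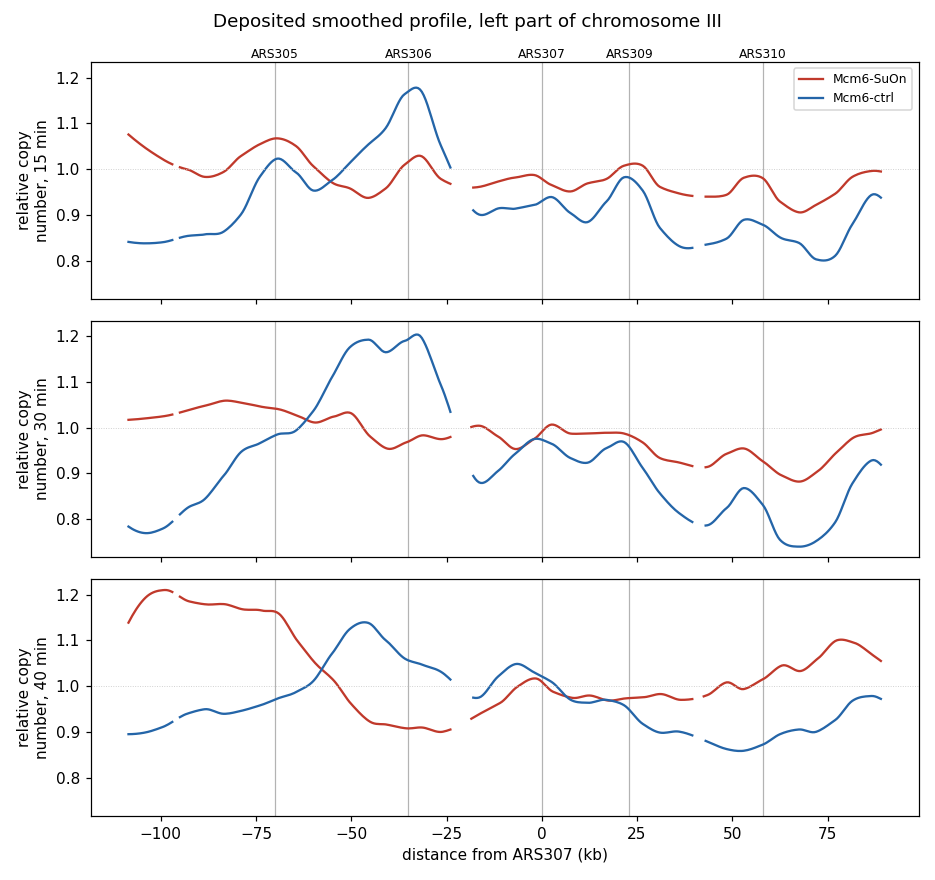
Smoothed relative copy number (deposited scale, y axis) along the left part of chromosome III at 15, 30 and 40 min, plotted against distance from ARS307 in kb, with Mcm6-SuOn in red and Mcm6-ctrl in blue, 1 library each. Vertical lines mark the 5 origins, and breaks in the curves are windows of low count; the Mcm6-ctrl curve stands highest at and left of ARS306, and the Mcm6-SuOn curve at 40 min stands highest at the left end.

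ARS306 was the origin with the largest difference between the genotypes in local contrast at 15 and 30 min on the deposited scale. It lies between HBN1 and FRM2, 2 neighbouring genes for nitroreductase-like proteins. Its relative copy number was 1.01, 0.969 and 0.908 in Mcm6-SuOn at 15, 30 and 40 min, against 1.17, 1.19 and 1.06 in Mcm6-ctrl (counting SE 0.0225 to 0.0333). Local contrast was 1.07, 1.02 and 1.004 in Mcm6-SuOn, against 1.26, 1.28 and 1.09 in Mcm6-ctrl. ARS306 thus stood well above both neighbouring valleys in Mcm6-ctrl at 15 and 30 min, and hardly above them in Mcm6-SuOn at 30 and 40 min. At 15 min the genotypes differed in contrast by -0.191 (-0.304 to -0.0786), and at 30 min by -0.264 (-0.369 to -0.159). At 40 min the difference was -0.0827, and its interval of -0.179 to 0.0140 spanned 0. Dividing both genotypes by their pooled 0 min counts left differences of -0.0669 at 15 min and -0.110 at 30 min. The 0 min counts of Mcm6-SuOn, used for both, left -0.0612 and -0.0824. The 15 min difference then lay within its counting error of 0.113 under both settings, and the 30 min one within its 0.105 with Mcm6-SuOn counts.

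Direct read shares at ARS306 gave the same direction after release, without any 0 min library. The Mcm6-SuOn share within 1 kb of the origin was 0.907 times that of Mcm6-ctrl at 15 min (0.859 to 0.957), 0.882 times at 30 min (0.838 to 0.928) and 0.945 times at 40 min (0.899 to 0.995). At 0 min the ratio lay on the other side of 1, at 1.21 (1.15 to 1.28). The counts behind these shares were 3050, 2386, 2738 and 3494 reads in Mcm6-SuOn at 0, 15, 30 and 40 min, and 2106, 3052, 3295 and 2694 reads in Mcm6-ctrl.

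The peak near ARS306 also differed in prominence, its height over the higher of the valleys that bound it. In Mcm6-SuOn a peak of prominence 0.0921 lay 3 kb to the right of the origin at 15 min, one of 0.00843 lay 4 kb to the right at 30 min, and none within 5 kb was found at 40 min. In Mcm6-ctrl the peak lay 2 kb to the right, with prominence 0.340 at 15 min and 0.434 at 30 min. Pooled 0 min counts gave 0.153, 0.0432 and 0.0102 in Mcm6-SuOn at 15, 30 and 40 min, against 0.244 and 0.336 in Mcm6-ctrl at 15 and 30 min and no peak at 40 min. By 40 min the highest point of Mcm6-ctrl on the left part of the chromosome was at 62.5 kb on the deposited scale. This is 11.5 kb to the left of ARS306, where a further maximum at 63.5 kb had appeared at 30 min. The zone of higher values in Mcm6-ctrl thus reached further left at 30 min than at 15 min. The Mcm6-ctrl 0 min share at 62.5 kb was 0.846 of the mean of the 8 libraries. Its 40 min share over that mean was 1.06 at 62.5 kb, below the 1.103 at 102 kb. The value at ARS306 itself changed by -0.135 in Mcm6-ctrl between 30 and 40 min (-0.192 to -0.0784), and by -0.0612 in Mcm6-SuOn (-0.108 to -0.0140).

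ARS305, between APA1 and YCL049C, had its peak next to the origin in both genotypes at 15 min. APA1 encodes an enzyme that breaks down diadenosine tetraphosphate. The relative copy number was 1.07, 1.04 and 1.16 in Mcm6-SuOn at 15, 30 and 40 min, against 1.02, 0.982 and 0.970 in Mcm6-ctrl. Local contrast was 1.11, 1.04 and 1.12 in Mcm6-SuOn, against 1.13, 1.08 and 1.02 in Mcm6-ctrl. On the deposited scale the genotypes lay within counting error at 15 and 30 min in both measures. At 40 min Mcm6-SuOn was higher by 0.193 in value (0.128 to 0.258) and by 0.107 in contrast (0.0258 to 0.189), and pooled 0 min counts gave a contrast difference of 0.0349, within its counting error of 0.0815. Pooled counts also moved the 15 min contrast difference at ARS305 to -0.120, from -0.0159 on the deposited scale, a larger difference than the -0.0669 at ARS306 under the same setting. On the deposited scale the peak itself was there at 15 min alone: at 0.5 kb from the origin with prominence 0.0844 in Mcm6-SuOn, and at 1 kb with prominence 0.0701 in Mcm6-ctrl. With pooled 0 min counts the Mcm6-SuOn peak lay 3.5 kb away (prominence 0.0393), and Mcm6-ctrl had a peak at 30 and 40 min too (0.0130 and 0.0144). At 40 min the Mcm6-SuOn curve was a high shelf from the left end to ARS305 that dropped towards ARS306, so the contrast there does not describe a peak. The direct ratio of shares, 0.991 at 40 min (0.951 to 1.03), showed no difference beyond counting error, while at 15 min it was 0.898 (0.857 to 0.941) and at 30 min 0.937 (0.896 to 0.979). At 0 min it was 0.943 (0.900 to 0.988), so ARS305 in Mcm6-SuOn also started low by this measure.

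ARS307, between LDB16 and PGS1, was a shallow peak in both genotypes. PGS1 encodes the enzyme that makes phosphatidylglycerolphosphate for cardiolipin in mitochondria. The relative copy number was 0.980, 0.989 and 1.01 in Mcm6-SuOn at 15, 30 and 40 min, against 0.929, 0.974 and 1.02 in Mcm6-ctrl. Local contrast ran at 1.03, 1.02 and 1.08 in Mcm6-SuOn, against 1.04, 1.08 and 1.06 in Mcm6-ctrl. No contrast or value difference at ARS307 exceeded counting error on the deposited scale. With pooled 0 min counts and genome scaling the value difference at 40 min was -0.119, beyond its counting error of 0.0718. With the unsmoothed ratio and genome scaling it was -0.200 at 40 min and -0.0952 at 30 min, the latter beyond its 0.0715. The Mcm6-SuOn share was 1.06 times that of Mcm6-ctrl at 0 min (1.004 to 1.12), 0.957 times at 15 min (0.906 to 1.01), 0.937 times at 30 min (0.890 to 0.985) and 0.837 times at 40 min (0.798 to 0.877), the lowest ratio of any origin at any time. The gaps on both sides were low by then too, at 0.893 (0.879 to 0.907) towards ARS306 and 0.892 (0.876 to 0.909) towards ARS309, so ARS307 did not stand alone in this.

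ARS309 lies between RVS161, which encodes an amphiphysin-like protein of endocytosis and cell fusion, and ADY2, which encodes an acetate transporter. Its relative copy number was 1.01, 0.984 and 0.974 in Mcm6-SuOn at 15, 30 and 40 min, against 0.982, 0.960 and 0.950 in Mcm6-ctrl. Local contrast was 1.07, 1.04 and 1.005 in Mcm6-SuOn, against 1.15, 1.12 and 1.05 in Mcm6-ctrl. Mcm6-SuOn was the lower genotype in contrast at all 3 times, with differences of -0.0790, -0.0862 and -0.0446, but each interval on the deposited scale spanned 0. A peak was present in Mcm6-SuOn at 15 min (prominence 0.0609), and in Mcm6-ctrl at 15 and 30 min (0.0991 and 0.0471). The Mcm6-SuOn share was 1.05 times that of Mcm6-ctrl at 0 min (1.003 to 1.11), 0.962 times at 15 min (0.914 to 1.01), 0.949 times at 30 min (0.904 to 0.997) and 0.947 times at 40 min (0.903 to 0.993).

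ARS310, between NPP1 and RHB1, was the lowest of the 5 origins in Mcm6-ctrl at every later time on the deposited scale. NPP1 encodes a nucleotide pyrophosphatase, and RHB1 a small GTPase of the Rheb family. The relative copy number was 0.981, 0.928 and 1.01 in Mcm6-SuOn at 15, 30 and 40 min, against 0.880, 0.834 and 0.872 in Mcm6-ctrl. Although Mcm6-SuOn was higher by 0.102, 0.0945 and 0.142 on the deposited scale, the direct ratios of shares were 0.995, 0.986 and 0.990, with intervals that all held 1. The difference in relative copy number thus depended on the scale and the 0 min counts, and in read shares after release none was detectable at this depth. Local contrast was 1.06, 1.03 and 1.02 in Mcm6-SuOn, against 1.08, 1.09 and 1.01 in Mcm6-ctrl, within counting error at each time. The top near ARS310 lay to the left of the given coordinate, by 2.5 kb in Mcm6-SuOn at 15 min, and by 4 and 5 kb in Mcm6-ctrl at 15 and 30 min.

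Set over the mean of the 8 libraries, read shares within 1 kb of the origins give each library its own value, without its 0 min library as divisor. At 15 min the shares were 0.991 at ARS305, 1.05 at ARS306, 1.01 at ARS307, 1.03 at ARS309 and 1.05 at ARS310 in Mcm6-SuOn. They were 1.104 at ARS305, 1.16 at ARS306, 1.06 at ARS307, 1.07 at ARS309 and 1.06 at ARS310 in Mcm6-ctrl. All 5 origins were thus above the mean in Mcm6-ctrl and 4 of 5 in Mcm6-SuOn, and the genotypes differed beyond counting error at ARS305 and ARS306. By 40 min 4 of the 5 origins were below the mean in Mcm6-SuOn, with ARS305 at 1.02, while ARS305 at 1.03 and ARS307 at 1.09 were above it in Mcm6-ctrl.

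**Figure D2:**
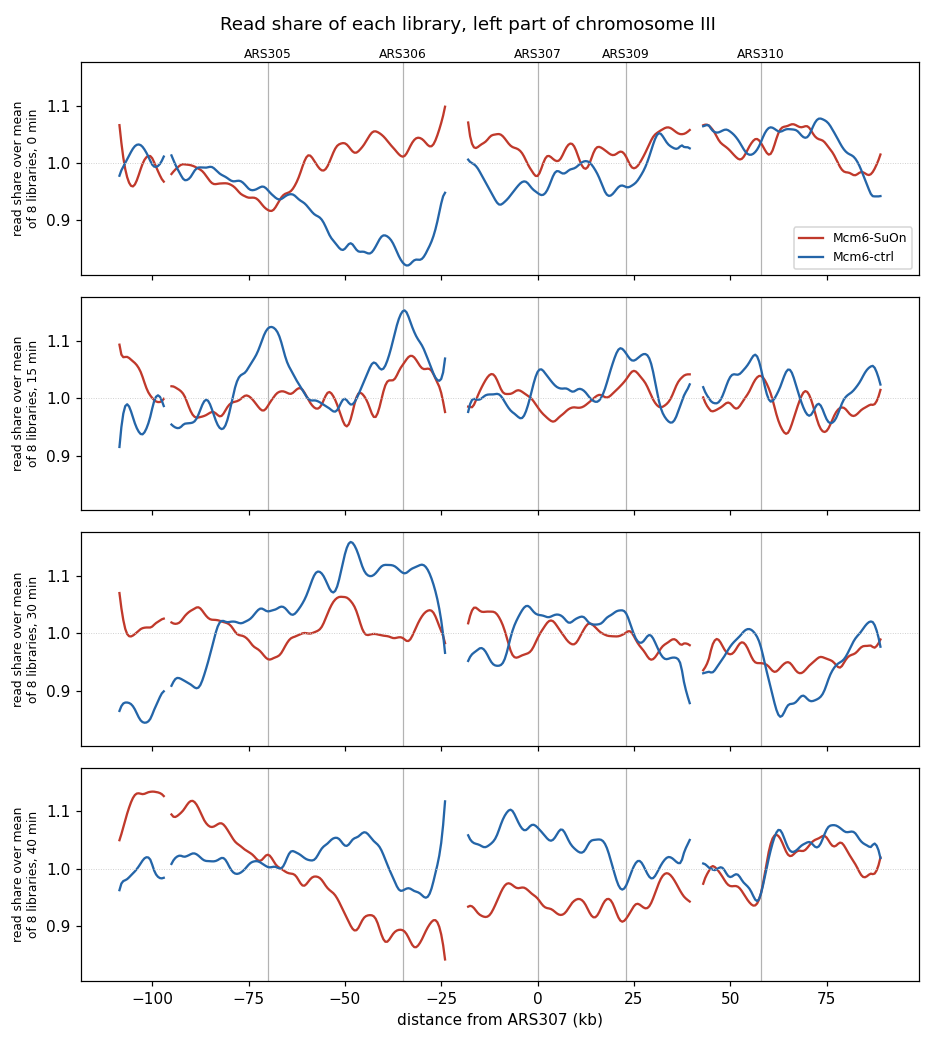
Read share over the mean of the 8 libraries (y axis, smoothed over 6 kb on each side for display) against distance from ARS307 in kb, at 0, 15, 30 and 40 min from top to bottom, with Mcm6-SuOn in red and Mcm6-ctrl in blue, 1 library each. At 0 min the Mcm6-ctrl curve is low at ARS306 (0.827 within 1 kb), at 15 min it has tops at ARS305 and ARS306, and at 40 min the Mcm6-SuOn curve is high over the left end (1.11 over the first 20 kb).

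**Figure D3:**
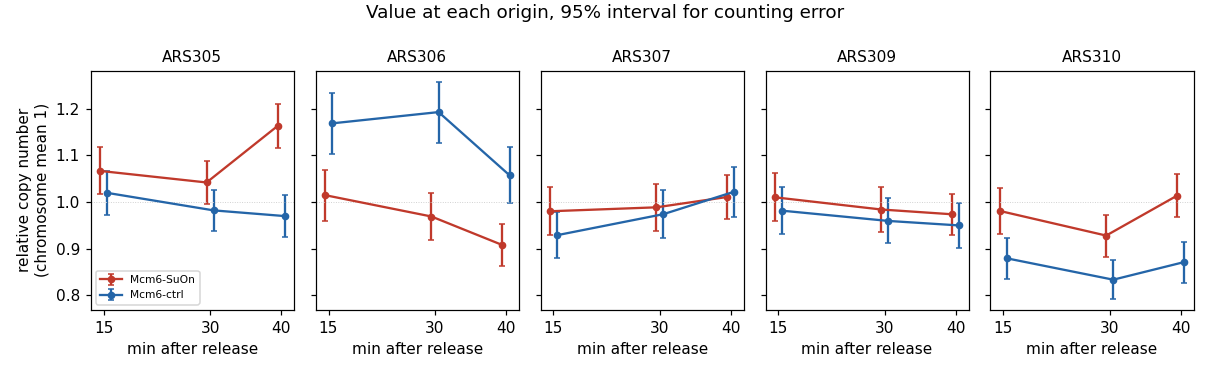
Relative copy number (y axis, chromosome mean 1) of each of the 5 origins against min after release (x axis), with Mcm6-SuOn in red and Mcm6-ctrl in blue, 1 library a point and bars for the 95% counting interval. At ARS306 the Mcm6-SuOn points (1.01, 0.969 and 0.908) lie below those of Mcm6-ctrl (1.17, 1.19 and 1.06), while at ARS310 they lie above, a difference that read shares do not show.

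Read over all 5 origins, local contrast was lower in Mcm6-SuOn at 5 of 5 origins at 15 min, 5 of 5 at 30 min and 2 of 5 at 40 min. The same counts were found with pooled 0 min counts, while ARS305 turned positive with the unsmoothed ratio at 15 min (0.0298) and 30 min (0.00336) and with gap midpoints at 30 min (0.0574), which leaves 4 of 5 there. The median difference was -0.0174, -0.0608 and 0.0143 at the 3 times, within its counting error at 15 and 40 min. On the deposited scale 1 origin at each time exceeded counting error, ARS306 at 15 and 30 min and ARS305 at 40 min. As given above, these differences shrank with other 0 min counts, those of ARS306 at 15 min and of ARS305 at 40 min to within counting error. At 15 and 30 min the ARS305 difference grew instead. It was -0.120 and -0.0930 with pooled counts, beyond its counting errors of 0.0926 and 0.0840. With Mcm6-SuOn counts it was -0.116 and -0.0800, the latter within its error. Which origins differed beyond counting error thus depended on the 0 min counts. A peak lay within 5 kb of 5, 2 and 1 of the origins in Mcm6-SuOn, and of 5, 4 and 0 in Mcm6-ctrl, at 15, 30 and 40 min. With pooled 0 min counts these were 4, 3 and 3 in Mcm6-SuOn and 5, 5 and 2 in Mcm6-ctrl. All origins thus had a peak at 15 min in both genotypes on the deposited scale, and fewer had one later.

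The order of the origins was mostly not resolved. Of 24 pairs of neighbours in the order, over 6 libraries, 6 differed beyond counting error on the deposited scale. In Mcm6-SuOn all 5 origins lay between 0.980 and 1.07 at 15 min with no resolved step between neighbours in the order. The highest, ARS305, and the lowest, ARS307, were not compared with each other, so this does not show that they were alike. At 40 min ARS305 stood 0.149 above ARS310 (0.0831 to 0.215), and ARS309 stood 0.0659 above ARS306 (0.00327 to 0.129), the lowest. ARS306 was also the lowest of the 5 in Mcm6-SuOn at 40 min with pooled 0 min counts (0.935) and in read share over the mean of 8 libraries (0.904). The next origins were close to it, ARS309 at 0.943 with pooled counts and ARS307 at 0.912 in read share. These 2 steps were not set against counting error, so the place of ARS306 is not resolved by them.

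In Mcm6-ctrl the place of ARS306 depended on the 0 min counts. On the deposited scale it stood above ARS305 by 0.149 at 15 min (0.0691 to 0.229) and by 0.211 at 30 min (0.132 to 0.289). With pooled 0 min counts ARS306 had 1.19 against 1.18 at ARS305 at 15 min and 1.18 against 1.102 at 30 min. With Mcm6-SuOn 0 min counts ARS305 was the higher of the pair, at 1.19 against 1.09 and at 1.12 against 1.08. At 40 min ARS306 was first on the deposited scale (1.06), below ARS307 and ARS305 with pooled counts (1.03, against 1.09 and 1.07), and last with Mcm6-SuOn counts (0.944) and in read share (0.956 of the mean of 8). By the last 2 measures ARS310 was close to it, at 0.960 and 0.961. ARS309 stood above ARS310 in Mcm6-ctrl by 0.126 at 30 min and 0.0784 at 40 min.

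Between the origins, the middle of the ARS305 to ARS306 gap was the one where Mcm6-SuOn was furthest below Mcm6-ctrl on the deposited scale at each later time. Its mean was 0.976, 1.01 and 0.994 in Mcm6-SuOn at 15, 30 and 40 min, against 1.01, 1.12 and 1.08 in Mcm6-ctrl. Read shares there were 0.980 (0.965 to 0.995), 0.933 (0.920 to 0.946) and 0.913 (0.901 to 0.926) times those of Mcm6-ctrl, and 1.14 times at 0 min (1.13 to 1.16). By read share this gap was the lowest at 30 min alone, as the ARS307 to ARS309 gap was lower at 15 min (0.974) and 40 min (0.892). In the ARS305 to ARS306 gap the ratio fell throughout. It was lower at each later time than at the one before, over 30179 to 48940 reads in Mcm6-SuOn and 35716 to 42971 reads in Mcm6-ctrl after release.

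In the gaps from ARS306 to ARS309 the genotypes lay on opposite sides of each other at 0 and 40 min. In the middle of the ARS306 to ARS307 gap the ratio of shares was 1.11 (1.09 to 1.13) at 0 min, 1.01 (0.988 to 1.02) at 15 min and 1.02 (1.001 to 1.03) at 30 min. In the ARS307 to ARS309 gap it was 1.03 (1.01 to 1.05) at 0 min, 0.974 (0.954 to 0.995) at 15 min and 0.972 (0.953 to 0.990) at 30 min. At 40 min both gaps were lower, with the values given above. The gap from ARS309 to ARS310 differed by less than 5% in share at all 4 times, with ratios of 1.01, 0.990, 1.01 and 0.973 at 0, 15, 30 and 40 min. On the deposited scale, however, its middle averaged 0.954, 0.933 and 0.985 in Mcm6-SuOn, against 0.855, 0.829 and 0.885 in Mcm6-ctrl. To the right of ARS310 the profile was lowest of all, at 0.906 in Mcm6-SuOn and 0.801 in Mcm6-ctrl at 15 min, and at 0.882 and 0.740 at 30 min. Mcm6-SuOn then showed a maximum of 1.102 near 187.5 kb at 40 min, with prominence 0.202 and no listed origin within 20 kb. With pooled 0 min counts the values at 187.5 kb at 40 min were 1.02 in Mcm6-SuOn and 1.05 in Mcm6-ctrl. The ratio of shares to the right of ARS310 was 0.993 (0.980 to 1.01) at 0 min, 0.967 (0.953 to 0.982) at 15 min, 1.02 (1.01 to 1.04) at 30 min and 0.973 (0.961 to 0.985) at 40 min. Read shares thus showed no excess of Mcm6-SuOn there at 40 min.

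The left end, with HML, ran the other way from ARS306. Of 9 windows that overlap HML, 6 had ratios, and 3 were listed at 0 for low count. The mean relative copy number of the 6 was 1.01, 1.03 and 1.20 in Mcm6-SuOn at 15, 30 and 40 min, against 0.848, 0.803 and 0.927 in Mcm6-ctrl. Read shares gave a smaller difference with the same direction. Over the first 20 kb the Mcm6-SuOn share was 1.07 times that of Mcm6-ctrl at 15 min (1.05 to 1.09), 1.16 times at 30 min (1.14 to 1.17) and 1.11 times at 40 min (1.09 to 1.12), while at 0 min it was 0.993 times (0.977 to 1.01). Both 0 min libraries thus had like shares here, and the genotypes parted after release. Mcm6-SuOn held 1.03, 1.02 and 1.11 times the mean share of the 8 libraries over the first 20 kb, whereas Mcm6-ctrl held 0.962, 0.883 and 1.00 times that mean. In Mcm6-ctrl the left end was thus low at 15 and 30 min and back at the mean by 40 min.

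**Figure D4:**
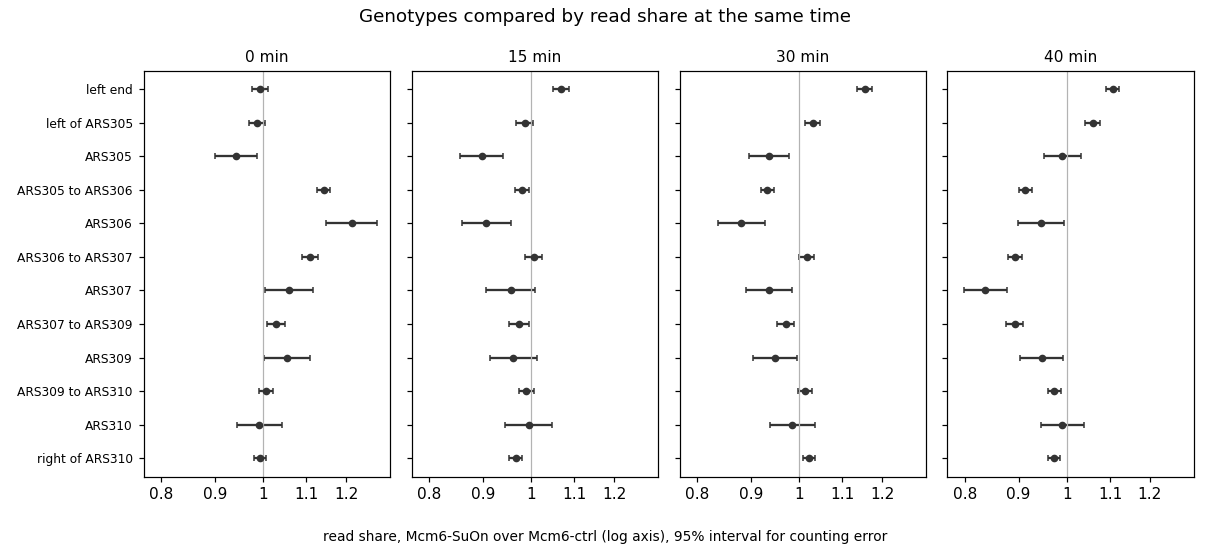
Read share of Mcm6-SuOn over Mcm6-ctrl (x axis, log scale) at 0, 15, 30 and 40 min for the origins and the stretches between them, from the left end at the top, with 95% intervals for counting error and 1 library per genotype and time. After release the left end lies above 1 (1.07, 1.16 and 1.11) and ARS306 below 1 (0.907, 0.882 and 0.945), while at 0 min ARS306 lies above 1.

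Differences of at least 0.1 in relative copy number were counted by window in both directions on the deposited scale. Mcm6-SuOn was higher in 110 of 376 windows at 15 min (29.3%, genome 5.50%), 141 at 30 min (37.5%, genome 14.2%) and 172 at 40 min (45.7%, genome 22.1%). It was lower in 38 windows at 15 min (10.1%, genome 10.5%), 57 at 30 min (15.2%, genome 14.3%) and 59 at 40 min (15.7%, genome 19.0%). The share of lower windows was thus near that of the genome at 15 and 30 min and below it at 40 min. The windows that were lower formed 1 block around ARS306 at each time, chrIII:61501-81000 at 15 min, chrIII:54501-83500 at 30 min and chrIII:55501-85500 at 40 min. The windows that were higher lay mainly at the left end and beyond ARS309 at 15 min, and the share that was higher depended on the scale. Scaled to the mean of the left part alone, 26 windows were higher and 56 lower at 15 min. With pooled 0 min counts 6, 40 and 26 windows were higher and 12, 31 and 105 were lower at 15, 30 and 40 min.

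Changes of at least 0.1 between later times were also counted on the deposited scale. Between 15 and 30 min, 0 of 376 windows changed so in Mcm6-SuOn. Such changes were rare in the whole genome too (0.938% higher and 0.0349% lower), so this was not particular to the left part. In Mcm6-ctrl 32 windows were higher at 30 min (8.51%, genome 6.26%) and 7 lower (1.86%, genome 3.40%). The 32 windows formed 1 run, chrIII:50001-66500, to the left of ARS306. Between 30 and 40 min, 131 of 377 windows (34.7%) were higher and 0 lower in Mcm6-SuOn (genome 10.1% each way). In Mcm6-ctrl 97 of 376 were higher (25.8%, genome 10.4%) and 19 lower (5.05%, genome 10.1%) over the same step. The 19 lay at chrIII:70501-80500 over ARS306.

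The direction of these changes depended on the scale. With genome scaling and each genotype's own 0 min counts, 28 windows were higher and 53 lower in Mcm6-SuOn between 30 and 40 min, 42 of the 53 at 55 to 85 kb. In Mcm6-ctrl 95 were higher and 25 lower, all 25 at 55 to 85 kb. Between 15 and 30 min that scaling gave 24 windows higher and 35 lower in Mcm6-ctrl, and 0 of either kind in Mcm6-SuOn. Over the mean of the 8 libraries the Mcm6-SuOn read share at 55 to 85 kb was 1.02 at 30 min but 0.901 at 40 min, and that of Mcm6-ctrl was 1.11 and then 1.02. The zone around ARS306 thus lost share in both genotypes in this step, while the first 20 kb gained share, with 1.02 and then 1.11 in Mcm6-SuOn, and 0.883 and then 1.004 in Mcm6-ctrl.

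The profile as a whole was flatter in Mcm6-SuOn at 15 and 30 min. The SD over windows was 0.0379, 0.0451 and 0.0904 in Mcm6-SuOn at 15, 30 and 40 min, against 0.0892, 0.130 and 0.0707 in Mcm6-ctrl. Over all windows of the other chromosomes the SD was 0.0428, 0.0567 and 0.0634 in Mcm6-SuOn, against 0.111, 0.1495 and 0.120 in Mcm6-ctrl. At 40 min in Mcm6-SuOn 0 of the 15 other chromosomes had a larger SD than the left part of chromosome III, and the high left end carried the highest value, 1.21 at 10 kb.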

How the data were processed

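DNA was purified by CsCl centrifugation and libraries made with a KAPA kit, per the labels' protocols. The deposited 0 min values are read counts in windows of 1000 bp every 500 bp. For each later library the authors deposited 3 ratios, per the file headers and the values: its count over the matching 0 min count, the same scaled by chromosome, and a smoothed form. Windows of low count, with at most 600 counts, are listed at 0 and were left out. Windows follow sacCer2, the build in the submitters' processing notes. The aligner is not given in the sources used here, nor is the smoother.

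Genotype and time in the labels define the groups, with 1 library each. Later counts were recovered as the unscaled ratio times the 0 min count. The value of an origin is the mean smoothed ratio of windows centred within 1 kb. Local contrast divides it by the mean of the lowest values in the gaps on both sides, so it lies above 1 by construction. Its counting error uses the reads within 1 kb, although smoothing draws on more. Gap means leave out 5 kb beside each origin. Read-share intervals are exact binomial at 95%. Windows count as different at 0.1 or more. Peaks needed a prominence of 0.005, and further peaks were to be named at 0.05 in the mean of the 6 later profiles, which none met; maxima named in single libraries were chosen after their values were seen. Alternatives were other scalings, smoothing, site widths and 0 min counts. The windows, origins and measures were chosen with earlier results of these data known. Gene neighbours come from the order of RefSeq genes (R64). Local contrast was tested on simulated counts, with peaks placed on the coordinates over a flat baseline. The error allowed there was larger than the median contrast differences reported here. Python 3.11.15, numpy 2.4.6, pandas 2.3.3, scipy 1.17.1 and matplotlib 3.10.9 were used.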

Additional observations from a re-analysis of the deposited data

How the results depend on the processing

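The median local contrast difference over the 5 origins moved by less than its counting error under all 18 alternatives. That error was 0.0557, 0.0536 and 0.0498 at 15, 30 and 40 min. At 15 and 40 min it was larger than the difference itself (-0.0174 and 0.0143), so there this check says little. At 40 min the sign turned with the unsmoothed ratio (-0.0261) and with Mcm6-SuOn 0 min counts (-0.00233). At single origins 8 contrast differences moved by more than their counting error, all at ARS305 or ARS306, and 82 did not. The plain origin values depended on the scale. Their median difference, 0.0470, 0.0245 and 0.0239 at 15, 30 and 40 min on the deposited scale, was -0.0165, -0.0300 and -0.0385 when scaled to the mean of the left part of chromosome III, -0.0731, -0.0952 and -0.0995 with the unsmoothed ratio and genome scaling, -0.0478, -0.0520 and -0.0631 with pooled 0 min counts and genome scaling together, -0.0455, -0.0507 and -0.0630 with Mcm6-SuOn 0 min counts for both and genome scaling together, and -0.146, -0.169 and -0.125 with pooled 0 min counts on the chromosome scale. In the last setting ARS310 turned to -0.117, -0.114 and -0.0625, and ARS305 at 40 min to -0.0546. Pooled counts do not divide out the 0 min difference on the right part of chromosome III, where the median ratio of shares was 1.72. On the chromosome scale that difference enters the mean by which the left part is divided. The values of this setting are thus not a measure of the left part alone. The ARS310 difference also turned negative in the 3 settings with genome scaling, to -0.0191, -0.0247 and -0.0230 at 15 min, -0.00991, -0.00771 and -0.00672 at 30 min, and -0.00327, -0.00244 and -0.00350 at 40 min.

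The SD in Mcm6-ctrl was 0.0835 at 30 min with Mcm6-SuOn 0 min counts, and at 40 min 0.0453 with pooled and 0.0430 with Mcm6-SuOn 0 min counts. Windows that differed numbered 148, 198 and 231 at the 3 times, 18, 71 and 131 with pooled counts, 17, 67 and 126 with Mcm6-SuOn counts, 36, 103 and 130 at a threshold of 0.15, and 82 at 15 min when scaled to the left part. Windows that changed in time numbered 81 with genome scaling, against 131, in Mcm6-SuOn between 30 and 40 min, and 59, against 39, in Mcm6-ctrl between 15 and 30 min. The 0 min ratio of shares became 1.044 over the other 15 chromosomes. Settings with Mcm6-SuOn 0 min counts, pooled counts on the chromosome scale, scales of the changes in time, direct read shares and pairing were chosen after seeing the data. The cause of these changes was not tested. With 1 library a group, differences between cultures cannot be told apart from differences between genotypes. Groups of 1 library share no replicate numbers, but the genotypes can be paired by time. Over the 3 later pairs the log2 ratio of shares averaged -0.13 ± 0.0507 at ARS306 (lower in Mcm6-SuOn in 3 of 3). Over the first 20 kb it averaged 0.1497 ± 0.0565 (higher in 3 of 3). The 3 times are not replicates, so this SD is a spread over time. The exact two-sided sign-flip permutation p was 0.25 for each, the smallest that 3 pairs allow. It takes this value whenever the 3 signs agree, and the other origins gave it too, so no conclusion is drawn from it.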
